A study of Glycine max with 4 samples.

Results

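The region described here was a window of chromosome 14 from 26.0 to 27.6 Mb (Glyma.Wm82.a2.v1), which held 648 of the 42947 probes of that chromosome and of the 951615 probes of the array. Its members were the probes whose start lay in the window, and the window had been chosen for a short stretch of low ratios, so the ratios given below describe that stretch and do not test it. Genomic DNA from leaves of 4 soybean plants was compared by aCGH with DNA of “M92-220” (M92-220-Long in the labels), the wild-type line that was irradiated with fast neutrons, at 1 plant per array and 500 ng of DNA per labeling reaction. Plants 35 and 45 came from the fast neutron line CM7F040P06 (P06) and plants 15 and 39 from the fast neutron line CM7F040P05 (P05). Every plant came from a line descended from irradiated material, and no plant of an unirradiated line was put in Cy3. “M92-220” was present only as the Cy5 channel, the mutant plant being in Cy3 on every array with no dye swap. The sources used here do not give the genotype of any single plant, and the arrays of a line are 2 relatives rather than repeated measurements of 1 plant.

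Fast neutrons break chromosomes, and the repair of such breaks can leave out or rearrange a stretch of DNA. In a selfing crop such as soybean, a deletion induced in one generation segregates in the next ones until a line carries it on both copies of the chromosome or has lost it, so sister plants can differ. In aCGH, a probe has only background left in the mutant channel when both copies of its target are gone, which gives a strongly negative log2 ratio, whereas the loss of 1 of the 2 copies would ideally give -1. Sequence that resembles the probe elsewhere in the genome can still bind to it.

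A run of 18 neighboring probes, from 26774074 to 26801907, was shifted downward in plants 35, 45 and 15 and near 0 in plant 39. Over these 18 probes the mean log2 ratio was -3.05 ± 1.83 in plant 35, -3.10 ± 1.93 in plant 45, -3.13 ± 1.85 in plant 15 and 0.031 ± 0.15 in plant 39 (SD over probes, which share 1 DNA sample and are not replicates). The plants of P06 thus had like values, and the plants of P05 did not. As a line mean, P06 had -3.08 ± 0.039 and P05 -1.55 ± 2.23 (SD, n = 2 plants). By the rule set for the extent, from the first to the last probe at or below -2 in the mean of the P06 plants, the stretch held 17 probes up to 26800333, of which 11 were at or below -2. Over these 17 probes the means were -3.12 in plant 35, -3.17 in plant 45, -3.18 in plant 15 and 0.031 in plant 39. Just beyond them, Gm_CUST_P12278398 missed the threshold at -1.94 and was shifted in the same plants, so it was counted with the run after its values had been seen. Of the 11 low probes, those closest to the threshold were Gm_CUST_P12278389 at -2.09 and Gm_CUST_P12278336 at -2.12, and of the others Gm_CUST_P12278326 came next after Gm_CUST_P12278398, at -1.59.

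**Figure D1:**
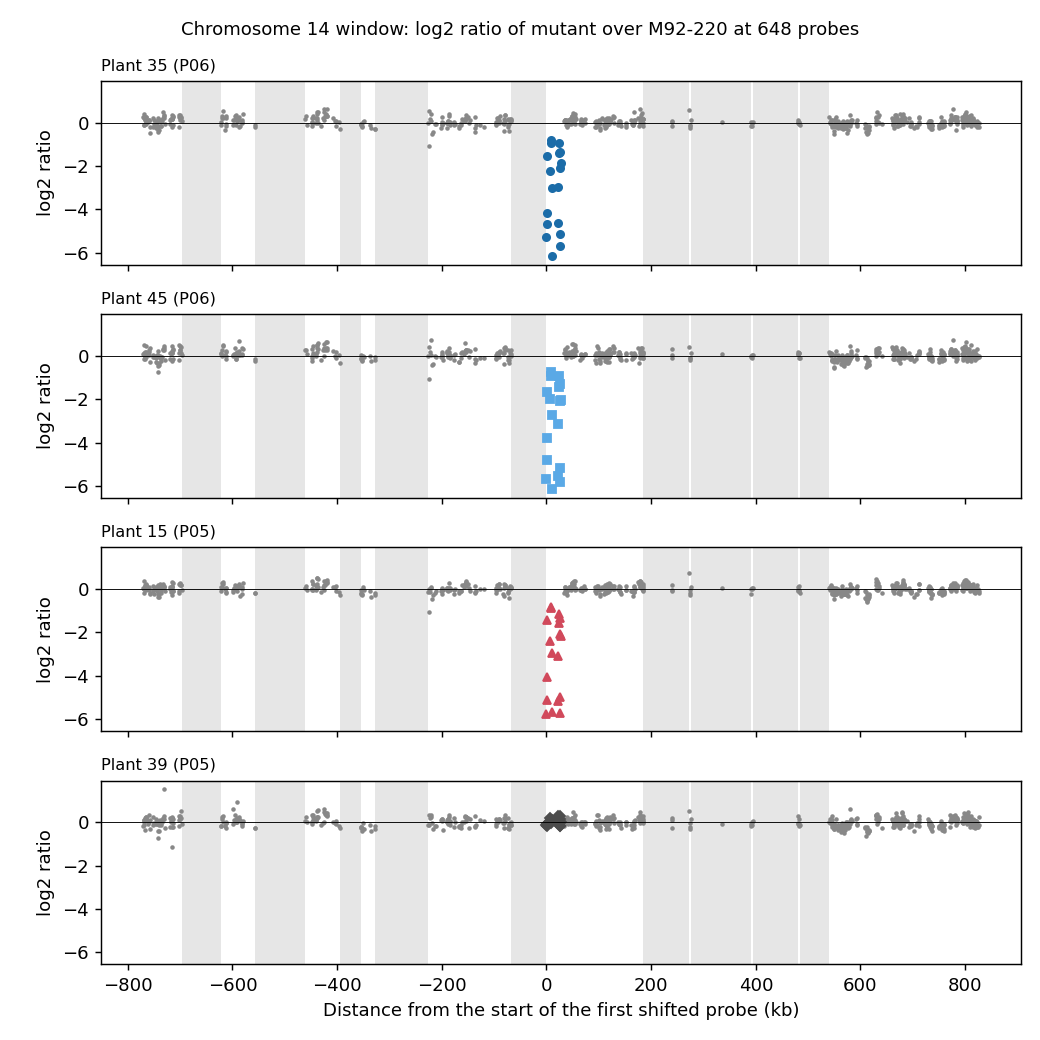
Centered log2 ratio of mutant over “M92-220” at the 648 probes of the window, 1 panel per plant, against the distance in kb from the start of the first shifted probe. Colored symbols are the 18 shifted probes, gray dots all others, and gray bands the gaps of over 30 kb without a probe. The colored symbols lie between -6.17 and -0.76 in plants 35, 45 and 15 and between -0.19 and 0.27 in plant 39.

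The probes set the limits of the stretch unevenly. The shifted probes spanned 27.8 kb. On the left, the next probe, Gm_CUST_P12278315 from 26706171 to 26706230, lay 67.8 kb away, and on the right the next one, Gm_CUST_P12278399 from 26808079 to 26808138, lay 6.17 kb away. Both stood near 0. The shifted sequence could thus reach from 26706231 to 26808078 at most, which is 101.8 kb, and most of that uncertainty lay on the left. The left gap was long for this array: 40 of the 42946 gaps between successive probes of chromosome 14 were at least as long, and 5 of these 40 were in the window. The window as a whole was thinly covered, with 40.5 probes per 100 kb against 87.6 on chromosome 14, and 11 gaps of over 30 kb took up 723 of its 1600.0 kb. The run itself had 64.7 probes per 100 kb. Stretches of the same 27.8 kb held 24 probes before the left gap and 29 probes after the right gap.

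**Figure D2:**
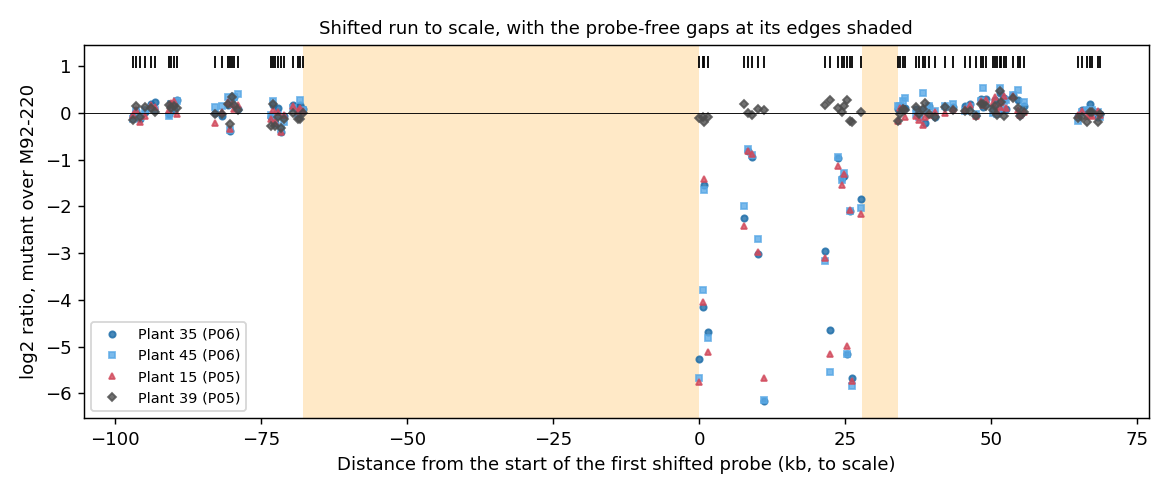
Centered log2 ratio of the 4 plants against the distance in kb from the start of the first shifted probe, drawn to scale, with a tick for each probe along the top. The shaded gaps without a probe at the edges of the run are 67.8 kb on the left and 6.17 kb on the right, so the left end is placed less well than the right end.

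Within the run, gaps of 6.06 and 10.4 kb without a probe separated 3 clusters of 4, 5 and 9 probes. The first cluster, from 26774074 to 26775617, had means of -3.91 in plant 35, -3.98 in plant 45, -4.08 in plant 15 and -0.11 in plant 39. For the second, from 26781676 to 26785286, they were -2.64, -2.50, -2.55 and 0.064 in the same order. The third, from 26795682 to 26801907, had -2.90, -3.05, -3.02 and 0.076. Deep and shallow ratios alternated in every cluster, so the depth did not fall off toward an edge of the run.

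The first cluster opened with a measured ratio below -5 in all 3 low plants, where Cy3 was not well above background. Gm_CUST_P12278321, at 26774074 to 26774133, stood at -5.26 in plant 35, -5.67 in plant 45, -5.77 in plant 15 and -0.10 in plant 39. Its neighbor Gm_CUST_P12278323, at 26774643 to 26774696, had -4.15, -3.78 and -4.04 in plants 35, 45 and 15 and -0.086 in plant 39. At both probes the plants fell into the same 3 low and 1 near 0. Gm_CUST_P12278326, at 26774955 to 26775014, was only moderately shifted, at -1.54, -1.64 and -1.40 in those plants and -0.18 in plant 39. Less than a kilobase farther, Gm_CUST_P12278334 at 26775563 to 26775617 had -4.68, -4.81 and -5.11, again with Cy3 not well above background, and -0.075 in plant 39. The moderate value of Gm_CUST_P12278326 recurred in all 3 low plants.

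The second cluster held the shallowest probe of the run and the probe with the lowest measured ratio, whose depth is known only as a rough bound. Gm_CUST_P12278336, at 26781676 to 26781735, had log2 ratios of -2.24 in plant 35, -2.0 in plant 45, -2.41 in plant 15 and 0.19 in plant 39. Shallowest of all, Gm_CUST_P12278343 at 26782436 to 26782495, had -0.81, -0.76 and -0.82 in the low plants and 0.0034 in plant 39. It did not overlap with plant 39 either, although its shift was smaller than that of 1 missing copy of 2 would ideally be. Gm_CUST_P12278351, at 26783178 to 26783237, was alike, with -0.95, -0.90 and -0.88 against -0.043. Gm_CUST_P12278354, at 26784099 to 26784149, stood lower, at -3.01, -2.71 and -2.97 against 0.095. Gm_CUST_P12278356, at 26785227 to 26785286, had -6.17 in plant 35, -6.13 in plant 45 and -5.67 in plant 15, while plant 39 had 0.075. Its Cy3 was not well above background in the 3 low plants, so it cannot be ranked against other deep probes.

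In the third cluster, Gm_CUST_P12278362 at 26795682 to 26795741 had -2.95 in plant 35, -3.16 in plant 45, -3.10 in plant 15 and 0.16 in plant 39. Gm_CUST_P12278369, at 26796384 to 26796443, had -4.64, -5.54 and -5.15 against 0.27, and showed the widest difference between the P06 plants in the run, 0.899. At both, the mutant signal was not well above background in the low plants. A series of moderate probes followed. Gm_CUST_P12278372, at 26797763 to 26797822, had -0.96, -0.94 and -1.13 against 0.11 in plant 39. Gm_CUST_P12278379, at 26798565 to 26798624, had -1.39, -1.43 and -1.55 against 0.017. Gm_CUST_P12278382, at 26798938 to 26798997, had -1.36, -1.28 and -1.31 against 0.16. None of these values came near those of plant 39. The deep ratios then returned at Gm_CUST_P12278386, from 26799314 to 26799373, with -5.15, -5.15 and -4.99 against 0.27. There too, Cy3 of the low plants was not well above background. Gm_CUST_P12278389, from 26799963 to 26800007, had -2.09, -2.09 and -2.08 against -0.16, and Gm_CUST_P12278391, from 26800285 to 26800333, had -5.67, -5.84 and -5.73 against -0.19. The last of the run, Gm_CUST_P12278398 from 26801848 to 26801907, had -1.85, -2.03 and -2.16 against 0.031. In each of the 18 probes, plants 35, 45 and 15 all lay below plant 39.

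**Figure D3:**
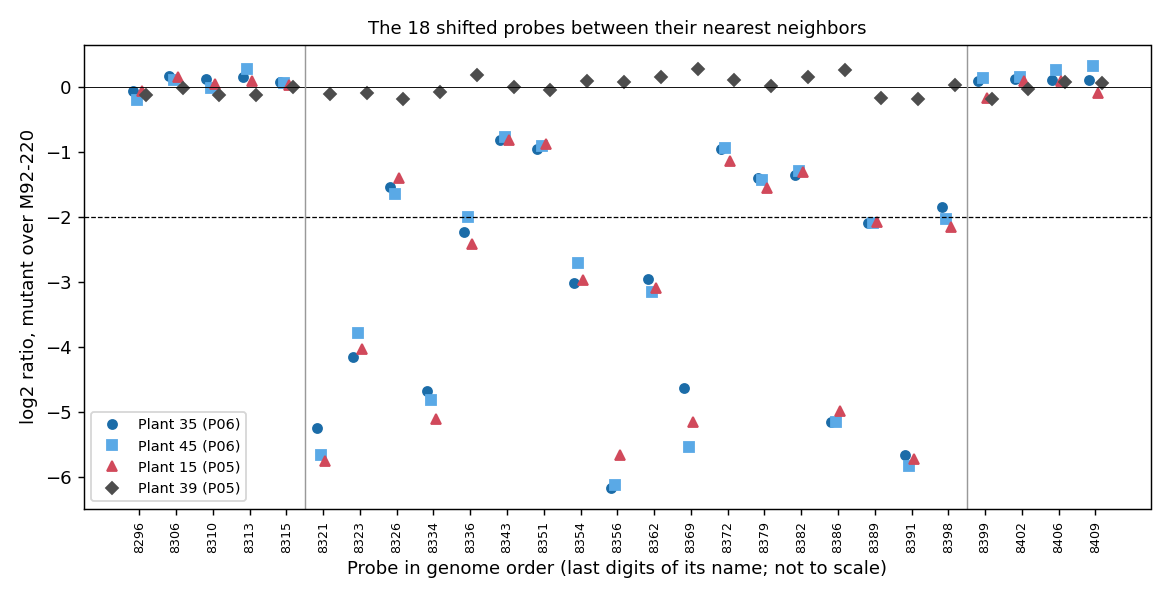
Centered log2 ratio of each plant at the 18 shifted probes and at their 5 nearest neighbors on the left and 4 on the right, in genome order and not to scale; gray lines mark the edges of the run and the dashed line a ratio of -2. At each shifted probe plants 35, 45 and 15 sit close together, from about -0.8 to about -6, while plant 39 stays between -0.19 and 0.27, and outside the lines all 4 plants lie between -0.20 and 0.33.

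The measured ratio of a probe was repeated from plant to plant, with the 6 probes included whose Cy3 was not well above background in the low plants. Across the 18 probes, plants 35 and 45 correlated with r = 0.990 (Spearman's rho 0.986), plants 15 and 35 with r = 0.990 (0.977) and plants 15 and 45 with r = 0.993 (0.979), whereas plant 39 correlated with the others at r between -0.035 and -0.015. These correlations are over probes that share a dye, a reference DNA and a brightness on every array, and serve as a description. The median absolute difference between plants 35 and 45 was 0.12 in the run and 0.077 at the 630 other probes of the window. From plant 15 of P05, this difference in the run was 0.15 to plant 35 and 0.14 to plant 45, slightly above that between the P06 plants. The mean difference of plant 15 over the run was -0.078 from plant 35 and -0.022 from plant 45. Plant 15 was the lower at 10 of the 18 probes in either case.

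The signals of each dye show what these ratios rest on. Cy5 of “M92-220” was well above background at all 18 probes on all 4 arrays, and no spot of the run was saturated. The mean Cy5 signal ran from 78.1 at Gm_CUST_P12278362 to 13722 at Gm_CUST_P12278391. Cy5 repeated between arrays with a median coefficient of variation of 9.15% in the run and 7.68% in the rest of the window. The median Cy5 signal of the run was 1081 and 1085 on the P06 arrays and 1231 and 1233 on the P05 arrays (15 and 39), close to the 1063 to 1077 of the other window probes. Only Gm_CUST_P12278362 had a Cy5 signal under 100 on every array.

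Cy3 of the mutant was well above background at 12 of the 18 probes in each of plants 35, 45 and 15, and at all 18 in plant 39. The same 6 probes were not well above background in the 3 low plants. Their measured ratios thus do not give their depth, for which only a rough bound can be given. At Gm_CUST_P12278321, Cy3 was 28.8 in plant 35, 21.3 in plant 45 and 17.5 in plant 15, against 1117 in plant 39. The dimmest Cy3 signal still well above background was 35.7, 34.4 and 42.7 on these arrays. Set in place of the probe's own Cy3, it put the mutant 31.1-fold below “M92-220” in P06 and 22.3-fold below it in plant 15. These folds are rough bounds and no strict limits, since a brighter signal need not be well above background. On the array of plant 39, Cy3 of 70.3 at Gm_CUST_P12278399 was not well above background, though a signal of 42.2 at another probe was. The rough bounds for P06 were 21.4-fold at Gm_CUST_P12278334, 20.2-fold at Gm_CUST_P12278386, 18.6-fold at Gm_CUST_P12278356 and 10.9-fold at Gm_CUST_P12278369. At the dimmest probe, Gm_CUST_P12278362, the bound was only 2.23-fold, so its ratio near -3 says little about its depth.

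The brightest probe was the only one at or below -4 with Cy3 well above background in the low plants. Its Cy5 varied the most between arrays in the run, with a coefficient of variation of 18.3%. At Gm_CUST_P12278391, Cy5 reached 15178 and 15868 on the P06 arrays (35 and 45) and 13598 and 10245 on the P05 arrays (15 and 39). Cy3 was 296 in plant 35, 276 in plant 45 and 256 in plant 15, all well above background, and 8976 in plant 39. The P06 plants thus kept 1.85% of the “M92-220” signal at a probe whose Cy3 was well above background. Its left neighbor Gm_CUST_P12278389, also bright, with Cy5 from 7044 to 8345, kept 23.5%: Cy3 was 1950, 1900 and 1706 in plants 35, 45 and 15 and 6278 in plant 39. Ratios as far apart as these thus stood side by side where Cy3 was measurable at both probes.

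A partial signal remained at 7 probes whose P06 mean was above -2. They kept 26.0% to 57.9% of the “M92-220” signal, with Cy3 from 306 to 1140 in plant 35, from 286 to 1074 in plant 45 and from 304 to 886 in plant 15. These signals were all well above background. All 7 probes were 60 bases long, as were some of the 11 low probes, which ran from 45 to 60 bases. Of the 7, 2 were listed on Chr014 rather than Chr14, as were 0 of the 11 low probes and 86 of the 648 window probes. Of the 6 probes at or below -4, only Gm_CUST_P12278391 had a measurable Cy3 in the low plants. For the other 5, only rough upper limits of the share follow from the bounds above. Of the 5 between -4 and -2, all but Gm_CUST_P12278362 were measurable, and they kept 6.40% to 23.5%. Binding of similar sequence from elsewhere in the genome was not tested, since probe sequences were not used here. The spots of the run were scattered over rows 14 to 873 and columns 5 to 821 of the slide, in the same place on all arrays, and none was marked as an outlier by the scanner software.

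**Figure D4:**
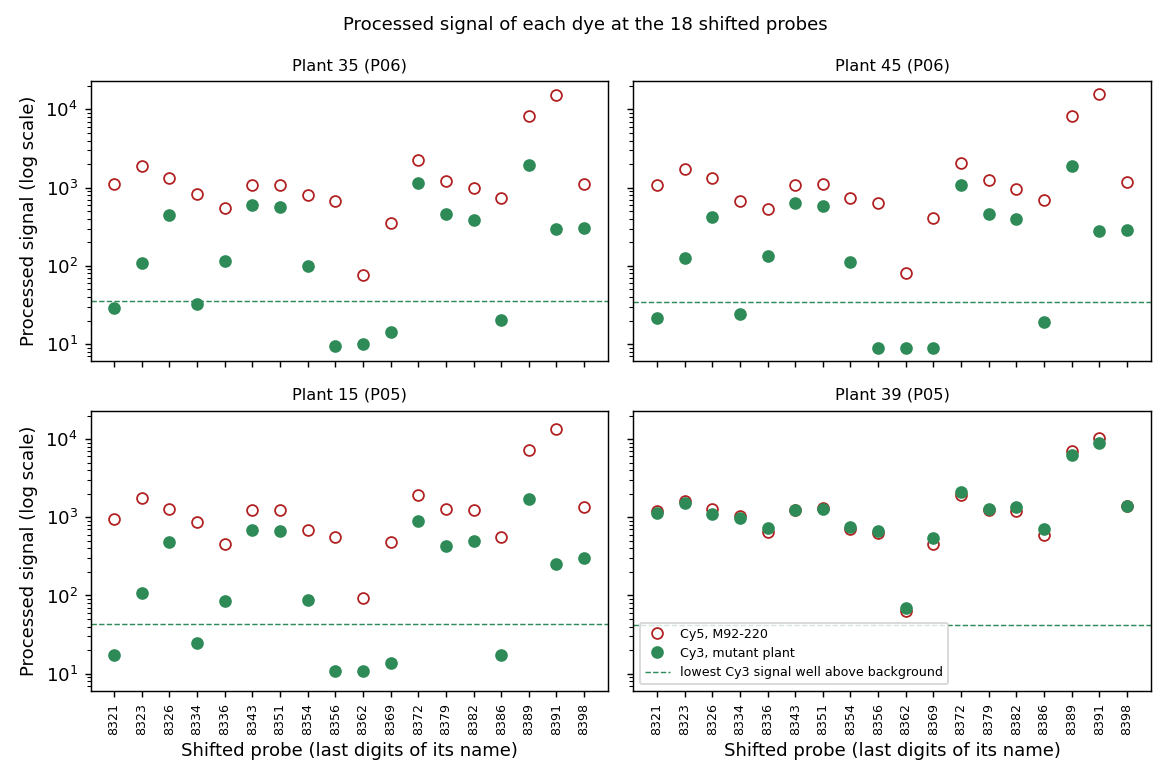
Processed signal (log scale) of Cy5, “M92-220” (open circles), and Cy3, the mutant plant (filled circles), at the 18 shifted probes in genome order, 1 panel per plant. The dashed line marks the dimmest Cy3 signal that was well above background on that array. In plants 35, 45 and 15 the same 6 filled circles fall under the line, and in plant 39 the filled circles lie on the open ones.

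Outside the run, the mean ratio of each plant was close to 0. The 631 probes outside the 17-probe stretch had means of 0.036 in plant 35, 0.046 in plant 45, 0.013 in plant 15 and 0.0090 in plant 39, and without Gm_CUST_P12278398 these were 0.039, 0.049, 0.016 and 0.0090. Their SD was 0.20, 0.22, 0.18 and 0.22 in the same order, against 0.22, 0.24, 0.20 and 0.33 over the rest of chromosome 14. The 10 probes before the left gap had means of 0.0049, -0.010, -0.034 and -0.11, and the 10 after the right gap 0.032, 0.15, -0.067 and 0.027. The mean of plant 45 to the right was the farthest above 0, and that of plant 39 to the left the farthest below. In bins of 100 kb with at least 20 such probes, the mean lay between -0.15 and 0.21 over all plants and 10 bins, and the other 6 bins held fewer. Among these 6, the bin that starts at 26400000 had 11 such probes and means of -0.12, -0.11, -0.16 and -0.25 in plants 35, 45, 15 and 39, and the one at 26200000 had 2 and means from -0.27 to -0.15. The highest of the 10 fuller bins started at 26300000 and the lowest at 27300000 in all 4 plants.

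One probe of the left flank had the pattern of the run. Gm_CUST_P12277967, at 26550197 to 26550256 and 223.8 kb before the first shifted probe, stood at -1.08 in plant 35, -1.09 in plant 45, -1.05 in plant 15 and -0.13 in plant 39. Cy3 was 1049, 1004 and 983 in the low plants and 2301 in plant 39, with Cy5 from 2040 to 2536. Its nearest neighbors did not share the shift. The probe 1337 bp to its left, Gm_CUST_P12277964, had 0.55, 0.41, 0.00092 and 0.32 in plants 35, 45, 15 and 39, and the probe 881 bp to its right, Gm_CUST_P12277970, had 0.18, 0.20, -0.12 and 0.22. Probes were then counted at which plants 35, 45 and 15 were each at or below -0.7 and plant 39 was at or above -0.5, limits set after these values had been seen. There were 18 of 18 in the run, 1 of the 630 in the flanks and 2 of the 42299 on the rest of chromosome 14. Those 2 lay just inside the limits, with plant 39 at -0.48 and -0.50. The 18 of 18 was largely built in, since the run had been drawn at the same -0.7 in the P06 mean. Windows around low stretches of chromosomes 6 and 10 had 543 of 2415. Outside the run and these windows, 34 of 949182 probes of the array had the pattern.

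The 3 largest differences between plants outside the run came from plant 39 alone. Smaller ones did not all do so, since plants 35 and 45 differed by up to 0.82 at a probe outside the run. Gm_CUST_P12277608 (26043414 to 26043473) stood at 1.54 in plant 39 and at 0.34, 0.45 and 0.11 in plants 35, 45 and 15. Gm_CUST_P12277630 (26057604 to 26057663) had -1.13 in plant 39 against 0.19, 0.13 and 0.080, and Gm_CUST_P12277753 (26182189 to 26182248) had 0.94 against 0.088, 0.0054 and -0.073. At these 3 probes both dyes were dim on the array of plant 39: at Gm_CUST_P12277608, for example, Cy3 was 31.7 and Cy5 11.0, against Cy3 of 352 to 358 and Cy5 of 259 to 332 on the other arrays. There were 6 such probes in the window, with Cy3 not well above background in plant 39 only and its Cy5 less than 50% of the lowest of the other arrays, and none was in the run. The nearest probe after the right gap, Gm_CUST_P12278399, was one of them, with Cy3 of 70.3 and Cy5 of 79.8 for plant 39 against Cy3 of 539 to 624 elsewhere, well above background. The next probe, Gm_CUST_P12278402, had Cy3 of 1438 and a ratio of -0.027 in plant 39. The remaining probe singled out for its mean, Gm_CUST_P12278857 (27046163 to 27046222), had 0.58, 0.43, 0.76 and 0.54 in plants 35, 45, 15 and 39, with neither dye well above background on any array.

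The limma calls in the window depended on which plants were fitted together. With both lines in 1 model, treat against a log2 ratio of 1 called 0 of 647 window probes below “M92-220” in P06, where it called 0.0875% of all probes, 0 in P05 (0.00463% of all) and 0 lower in P06 than in P05 (0.0769% of all), at an adjusted p under 0.05 (limma, Benjamini-Hochberg). At an unadjusted p under 0.05 the counts in the window were 13, 0 and 0. In that model both lines share 1 estimate of the spread per probe, and plants 15 and 39 differed at every probe of the run. With the P06 arrays alone, treat called 14 probes of the window, all in the run, against 0.158% of all probes. With eBayes against 0 and a mean beyond 1, over all 4 arrays, 16 probes were called in P06 (0.215% of all probes), 15 in the run and the lone probe of the left flank. By this rule 0 were called in P05 (0.06% of all probes) and 0 lower in P06 than in P05 (0.0895%), with 8 and 0 at an unadjusted p under 0.05. The eBayes count in P06 fell to 12 without plant 35 and to 4 without plant 45, that in P05 was 6 with the normexp correction and 17 without plant 39, and that of P06 against P05 was 17 without plant 15. The probes of the run missed by eBayes were the 3 with P06 means above -1. Leaving out plant 39 raised the treat count in P05 to 13, and leaving out plant 15 raised the treat count of P06 against P05 to 12, in fits where P05 had 1 plant, assumed to vary like the P06 plants. The treat count in P06 was 14 without plant 15 or without plant 39, and 0 without plant 35 or without plant 45. Since the window was chosen by these ratios, no inference is drawn from its counts against those of all probes.

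The same 3 plants were low, and plant 39 near 0, at longer stretches of chromosomes 6 and 10, against which the depth of the chromosome 14 run can be set. Taken in the same way, from the first to the last probe at or below -2 in the P06 mean, the chromosome 6 stretch had 49 probes over 73.0 kb and the chromosome 10 stretches 249 probes over 574 kb and 264 probes over 1304 kb. On chromosome 14, 35.3% of the 17 probes of the stretch were above -2, against 12.2%, 11.6% and 14.02% at these 3. These shares include probes near 0, which numbered 0 on chromosome 14 and 2, 3 and 6 at the others. Without them, partial signals made up 35.3% on chromosome 14 and 8.16%, 10.4% and 11.7% at the others. With ratios at background left as measured, the median of plant 35 was -2.95 on chromosome 14 and -4.69, -5.33 and -5.29 at the others, and in plant 15 it was -2.97 against -4.95, -5.33 and -5.32. The median Cy5 signal was 1107 on chromosome 14 and from 995 to 1252 at the others. Partial signals were thus a larger share of the chromosome 14 stretch in these arrays. The difference was not tested, since all of these stretches were chosen by their ratios and the chromosome 14 stretch has few probes.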

How the data were processed

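Genomic DNA of 4 mutant plants, each on 1 array, was compared with “M92-220”. The authors deposited Agilent Feature Extraction 12.0.0.7 output for each array, with a spot intensity for each dye. Per the file headers, background subtraction, spatial detrending and a linear dye normalization had been applied to it. The deposited log10 ratio of Cy5 over Cy3 has an error, which weighted the interval search. The authors also deposited processed log2 ratios, which differed from those of the scanner signals by a constant per array, within 0.01 at 99.98% or more of the probes, and held none of the 8054 probes listed on Chr014. In the order of their names 100% of these lay between neighbors of chromosome 14, and they were taken as such.

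Spots marked as outliers by the software (210 to 861 per array) were left out, spots of a probe were averaged, and log2(Cy3/Cy5) was centered on each array's median. Median signals were 1034 to 1054, and Cy5 was well above background at 98.9% to 99.4% of spots. Probes were fitted with limma 3.58.1 in R 4.3.3 (1 mean per line, 4 arrays), with treat against 1 or eBayes, and adjusted over 951298 probes; the fit was tested on simulated data. The null was a ratio of 0, so the spread of “M92-220” itself is not in the test. P-values measure only the spread between these plants, whose number limits the precision. Each array's own slide leaves no batch to compare. Alternatives were the centering, a normexp background correction on median signals with an offset of 50, and keeping marked spots. Others were the Chr014 probes, the processed ratios, other thresholds, an interval search and leaving out each plant.

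Named were the low probes and those between them, the 5 nearest on either side, and the 3 others of the window farthest from 0 in the mean and the 3 with the largest difference between plants. The window, these rules and the lists were chosen with earlier results of these data known. Genes of the region and probe sequences were not analysed here.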

Additional observations from a re-analysis of the deposited data

How the results depend on the processing

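No paired analysis was made, since the labels pair no plant of P05 with a plant of P06. The array has no probe in 67.8 kb to the left of the run, so the left end is not placed within that gap, and at 6 of the 18 probes Cy3 at background sets the depth. With 2 plants per line, 1 low and 1 near 0 in P05, the line means of P05 describe neither of its plants.

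Except where it is named, the cause of a change was not tested. The limma treat count of P06 was 14 from the P06 arrays alone and 16 by eBayes with a mean beyond 1, and it ran from 0 to 14 when plants were left out in turn. Leaving out plants gave 0 to 13 in P05 and 0 to 12 for P06 against P05. A normexp correction left 7 probes at or below -2, against 11, and means of -2.01 in plant 35, -1.93 in plant 45 and -2.0 in plant 15. Dim probes moved toward 0, such as Gm_CUST_P12278356 to -1.68, Gm_CUST_P12278369 to -0.87 and Gm_CUST_P12278362 to -0.20. With this correction Gm_CUST_P12278362, the dimmest of the run, was no longer clearly shifted. The correction adds an offset of 50 to both dyes, which by itself pulls the ratios of dim probes toward 0. These moves thus say little about the depth of such probes. The brightest, Gm_CUST_P12278391, moved to -6.22. At a threshold of -1 the extent grew to 252 kb, or 259 kb at most, since the lone probe of the left flank then counts; the means became -0.58 in plant 35, -0.56 in plant 45 and -0.61 in plant 15. Plants 35 and 45 had -3.05 and -3.10 over the interval of the lowest score, and likewise at -1 without that probe and over the unbroken run, 2 alternatives added after the data were seen. Leaving out the Chr014 probes gave -3.38 and -3.43, the processed ratios -3.43 and -3.48, and the median -2.95 and -2.71.

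The flank means, all near 0, moved by more than the spread between plants in plants 15, 39 and 45 without centering (0.0087, 0.0032 and 0.038). Centering by chromosome gave 0.00022, 0.0023, 0.022 and 0.031 in plants 15, 39, 35 and 45, and normexp 0.017, 0.0029 and 0.044 in plants 15, 39 and 35. With the Chr014 probes left out, plants 15, 39 and 45 had 0.016, 0.016 and 0.058. The processed ratios, which are not centered, gave -0.0085, -0.0086, -0.0068 and 0.0065 in plants 15, 39, 35 and 45. Keeping marked spots gave 0.015 and the median 0.0057 in plant 39, and the unbroken run 0.016 in plant 15. Of the values so recomputed, 111 stayed within the limit set for them and 46 moved beyond it. For the means of the stretch, the limit was the SD between the plants of the line, 2.27 in P05 and 0.034 in P06. The P05 limit was wide because plant 15 was low and plant 39 near 0. Even the move of plant 15 from -3.18 to -2.0 under normexp stayed within it, so the 111 do not measure stability. Among the 46, the flank means of plants 15, 39 and 35 changed sign with the processed ratios. The P06 mean of the named probes moved by up to 4.47 under normexp and by at most 0.050 under the others.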
